A study of Mus musculus with 8 samples.

Results

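Glycolysis and hypoxia-linked genes were followed in single cells of the mouse yolk sac as a group of 34 listed genes, out of 23091 genes in the tables. The list was drawn up by function and not by level. It holds 17 glycolytic enzymes, 4 carriers of glucose and lactate, 2 pyruvate dehydrogenase kinases, 3 genes of oxygen sensing and 8 genes known to respond to hypoxia. The level of each gene is given as transcripts per 10000 transcripts of all genes, summed over the wells of 1 library and 1 class of cells. Means are given ± SD over libraries.

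The mice were C57BL/6N wild types at embryonic day 9.5, and cells of their extraembryonic yolk sac were stained for CD45 and CD11b and sorted singly as CD45+ cells. All 8 libraries carry the same batch letter. In 4 libraries the cells were labelled as A1 and A2 cells, which are known as the early and the later myeloid precursors of yolk sac macrophages. The other 4 libraries were labelled as EMP cells, the erythromyeloid progenitors from which they arise, and per the labels these were not used in the published work. The labels do not say that libraries came from separate animals, so every p-value measures only the spread between these libraries.

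Of 1536 wells, 811 held at least 5000 transcripts and were kept, 306 in A1/A2 libraries and 505 in EMP libraries. Kept wells of a library summed to between 2440397 and 5326589 transcripts, and the median well held between 18044 and 43663. Wells were divided by marker transcripts. Cx3cr1 wells (89, in the A1/A2 libraries), Kit wells (118 in EMP libraries and 12 in the A1/A2 libraries) and Cdh5 wells (27, in EMP libraries) held at least 1 transcript per 10000 of that gene and less of the other 2. Apoa1 wells held at least 25 Apoa1 transcripts per 10000 and numbered 84 in A1/A2 libraries and 213 in EMP libraries. They were taken first, so comparisons of Apoa1 wells used the 84 Cx3cr1 and 112 Kit wells below that minimum, while levels are printed for the 89 and 118 wells below 50 Apoa1 transcripts. For this reason, and because the fits used TMM normalization, log2 differences of Apoa1 wells do not equal ratios of the printed levels. The 27 Cdh5 wells also lay below 50 Apoa1 transcripts, and 24 of them lay below 25. Globin-rich wells, with globin genes at 10% of transcripts or more, numbered 1 and 5. Many wells fell in no class, 183 in A1/A2 and 302 in EMP libraries with Apoa1 wells taken at 50 per 10000. At the looser rule (25 per 10000, globin at 5%) these were 122 and 130. A further 3 and 17 wells held more than 1 of Cx3cr1, Kit and Cdh5 and were set aside as mixed. A class entered a comparison only in libraries with at least 5 of its wells, which left EMP library 2 out for Cdh5 wells.

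The classes were checked against marker genes. Myeloid markers summed to 15.9 ± 1.03 per 10000 in Cx3cr1 wells and to 1.08 ± 0.134 in Kit wells of the EMP libraries. Progenitor markers summed to 8.54 ± 0.909 in those Kit wells and to 2.01 ± 0.324 in Cx3cr1 wells. Endothelial markers summed to 21.8 ± 4.64 in Cdh5 wells. Yolk sac endoderm markers summed to 198.0 ± 19.8 in Apoa1 wells of the A1/A2 libraries and 201.7 ± 21.0 in those of the EMP libraries, while Ptprc, which encodes CD45, stood at 0.292 ± 0.0858 and 0.0332 ± 0.0192 there and at 1.22 ± 0.289 in Cx3cr1 wells. Endoderm transcripts were present in every other class as well, at 41.4 ± 5.51 in Cx3cr1 wells, 37.0 ± 18.5 in Kit wells and 80.0 ± 21.2 in Cdh5 wells. A library of either label was therefore a mixture, with endoderm markers at 91.5 ± 21.6 in the A1/A2 libraries against 9.34 ± 1.14 for myeloid markers.

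Glycolysis splits glucose into pyruvate and gives a small amount of ATP without oxygen. Lactate dehydrogenase turns pyruvate into lactate, and carriers of the Slc16a family move lactate across the cell membrane. When oxygen is scarce, prolyl hydroxylases no longer mark the hypoxia-inducible factors for destruction, and these factors bind short DNA elements with the core ACGTG or GCGTG and switch on glycolytic enzymes, carriers, Vegfa and Bnip3. The yolk sac of this age is the first site of blood formation, and its endoderm is the absorbing and secreting layer that feeds the embryo.

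The bases upstream of 6 members are shown because these genes differed between classes of cells in opposite directions. Slc2a1, Slc16a1 and Bnip3 were high in Apoa1 wells, Slc16a3 and Pgk1 were high in Cx3cr1 wells, and Egln3 was high in Kit wells. Each stretch is the 250 bases before the start of the gene in RefSeq (mouse build GRCm38.p6), and capitals mark ACGTG or GCGTG on either strand (CACGT and CACGC are the same letters read from the other strand, and CACGTG holds ACGTG on both).
Slc2a1 (chr4:119108495-119108744, plus strand): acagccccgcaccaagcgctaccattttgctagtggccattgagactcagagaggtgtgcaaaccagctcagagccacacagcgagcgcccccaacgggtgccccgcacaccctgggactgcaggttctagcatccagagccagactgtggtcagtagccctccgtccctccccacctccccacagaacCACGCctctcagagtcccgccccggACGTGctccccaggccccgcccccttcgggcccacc
Slc16a1 (chr3:104638414-104638663, plus strand): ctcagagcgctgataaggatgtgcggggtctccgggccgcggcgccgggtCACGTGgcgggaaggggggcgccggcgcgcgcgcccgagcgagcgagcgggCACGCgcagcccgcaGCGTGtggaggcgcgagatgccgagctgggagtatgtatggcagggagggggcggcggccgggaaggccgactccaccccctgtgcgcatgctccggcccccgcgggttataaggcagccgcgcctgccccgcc
Bnip3 (chr7:138909507-138909756, minus strand): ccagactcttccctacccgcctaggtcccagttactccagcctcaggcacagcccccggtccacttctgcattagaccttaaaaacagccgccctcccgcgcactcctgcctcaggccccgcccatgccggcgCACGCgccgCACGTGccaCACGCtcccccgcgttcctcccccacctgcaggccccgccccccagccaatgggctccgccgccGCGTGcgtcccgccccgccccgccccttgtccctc
Slc16a3 (chr11:120948817-120949066, plus strand): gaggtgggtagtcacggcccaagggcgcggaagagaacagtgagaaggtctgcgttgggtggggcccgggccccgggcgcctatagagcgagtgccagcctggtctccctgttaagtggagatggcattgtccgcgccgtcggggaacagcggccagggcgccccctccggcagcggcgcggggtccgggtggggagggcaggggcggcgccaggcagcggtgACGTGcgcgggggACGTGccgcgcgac
Pgk1 (chrX:106186850-106187099, plus strand): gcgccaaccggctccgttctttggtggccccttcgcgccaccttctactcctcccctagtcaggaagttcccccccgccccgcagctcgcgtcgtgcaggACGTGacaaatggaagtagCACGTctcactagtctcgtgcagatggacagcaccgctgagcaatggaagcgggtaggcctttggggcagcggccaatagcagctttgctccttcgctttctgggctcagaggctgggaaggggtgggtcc
Egln3 (chr12:54203875-54204124, minus strand): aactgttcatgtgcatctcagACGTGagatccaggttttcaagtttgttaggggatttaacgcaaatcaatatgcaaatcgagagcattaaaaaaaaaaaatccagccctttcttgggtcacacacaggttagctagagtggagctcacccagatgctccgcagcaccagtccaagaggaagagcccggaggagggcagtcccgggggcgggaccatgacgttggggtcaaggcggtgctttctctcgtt
All 6 stretches held at least 1 ACGTG, and Slc16a1 and Bnip3 held the palindrome CACGTG. Of the 34 members, 31 were found among the RefSeq promoter windows (44 windows of 300 bases, from 250 before to 50 after a start), and Slc2a3, Bnip3l and Ndrg1 were not. ACGTG on either strand was found in 25 of the 44 windows (56.8%), against 19.6% of all 32851 windows. GCGTG was found in 26 (59.1%) against 32.4%, and CACGTG, which is part of the ACGTG matches, in 5 (11.4%) against 7.15%. Tpi1, Gpi1 and Eno2 held neither core in their windows. A match of these letters is a description and not a bound site.

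The 34 genes together made up 95.02 ± 5.20 transcripts per 10000 in Cx3cr1 wells, with 93.0, 92.0, 102.8 and 92.3 in A1/A2 libraries 1 to 4. Kit wells held 72.6, 80.3, 76.9 and 77.2 in EMP libraries 1 to 4 (76.7 ± 3.19). The 4 Cx3cr1 sums lay above all 4 Kit sums. This order did not hold in shallow wells. Pooled over wells of at least 20000 transcripts, Cx3cr1 wells held 95.7 (70 wells) and Kit wells of the EMP libraries 76.6 (81 wells), whereas below 20000 they held 72.6 (19 wells) and 74.2 (37 wells). Cdh5 wells held 78.1, 61.9 and 69.5 in EMP libraries 1, 3 and 4 (69.8 ± 8.09), a range that overlapped that of Kit wells. With wells of at least 25 Apoa1 transcripts per 10000 taken out, they held 66.3, 59.2 and 61.0. Kit wells of EMP libraries 1 to 4 then held 72.8, 79.8, 76.8 and 77.2, without overlap. Apoa1 wells held 97.4, 101.0, 96.4 and 104.5 in A1/A2 libraries and 89.7, 97.9, 91.7 and 107.3 in EMP libraries, above all Kit sums and overlapping those of Cx3cr1 wells. The 12 Kit wells of the A1/A2 libraries, too few per library for a test, held 74.1 when pooled (95% exact Poisson interval 71.0 to 77.3). Such intervals cover counting error only.

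The sums hid an exchange between enzymes and carriers. Glycolytic enzymes made up 80.0 ± 4.77 per 10000 in Cx3cr1 wells, 62.5 ± 4.55 in Kit wells, 50.02 ± 3.90 in Cdh5 wells, and 61.5 ± 3.21 and 53.0 ± 4.16 in Apoa1 wells of the A1/A2 and EMP libraries. The 4 carriers made up 32.0 ± 3.20 and 37.0 ± 3.34 in those Apoa1 wells, against 9.58 ± 1.21 in Cx3cr1 wells. In Kit wells the carriers stood at 6.95, 7.50, 14.0 and 6.32 in EMP libraries 1 to 4. Library 3 stood apart there, and its Kit wells also held the most endoderm transcripts, 64.4 per 10000 against 29.6, 30.2 and 23.7 in libraries 1, 2 and 4. The part of endoderm transcripts in the carrier levels of Kit wells was not tested.

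**Figure D1:**
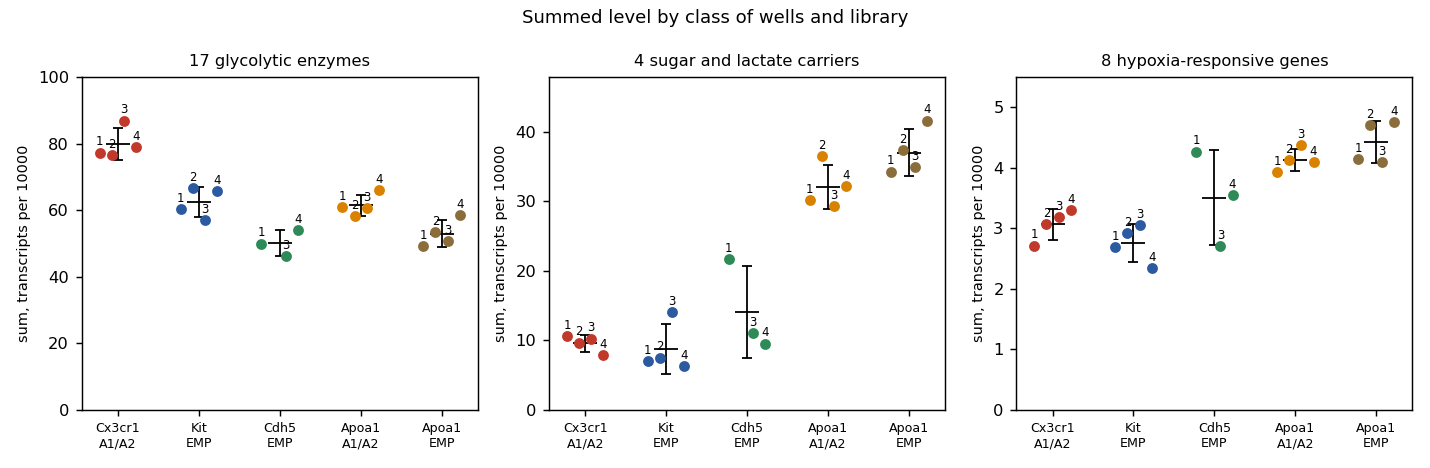
Summed transcripts per 10000 (vertical axes) of the glycolytic enzymes, the carriers and the hypoxia-responsive genes in each class of wells, with 1 numbered point per library and the mean and SD over libraries. Enzymes were highest in Cx3cr1 wells (mean 80.0), and carriers were highest in Apoa1 wells (means 32.0 and 37.0).

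Each comparison was made on the sums per library with edgeR's quasi-likelihood test across all genes that passed a filter on low counts, and a gene was called at a Benjamini-Hochberg adjusted p under 0.05. Between Cx3cr1 wells of the A1/A2 libraries and Kit wells of the EMP libraries, 28 of the 34 members passed the filter and 13 were called, 9 higher and 4 lower. That is 46.4% of the members tested, beside 25.6% of all 8329 genes tested (13.6% higher and 12.0% lower), and the median log2 difference was 0.25 for the members and -0.011 for all genes. These groups also differ in their sort and their libraries, which cannot be told apart from the class of cell. Mitochondrial genes made up 15.7% ± 0.812 of transcripts in Cx3cr1 wells and 20.9% ± 2.44 in Kit wells.

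Between Cdh5 and Kit wells of the EMP libraries, 3 of 26 members tested were called (1 higher and 2 lower; 11.5%, beside 12.0% of 6857 genes, 7.63% higher and 4.40% lower), a share near that of all genes. Between Apoa1 and Kit wells of the EMP libraries, 22 of 28 members tested were called, 12 higher and 10 lower (78.6%, beside 60.4% of 9319 genes, 31.3% higher and 29.1% lower). At the planned, stricter minimum of 50 Apoa1 transcripts, 3 libraries entered, with 7, 13 and 11 of the 34 wells. There 15 of 26 were called, 8 higher and 7 lower (57.7%, beside 53.5% of 7008 genes, 27.3% higher and 26.2% lower), a share near that of all genes. Between Apoa1 and Cx3cr1 wells of the A1/A2 libraries, 22 of 26 members tested were called, 9 higher and 13 lower (84.6%, beside 56.3% of 8057 genes, 29.2% higher and 27.1% lower). Between Apoa1 wells of the A1/A2 and EMP libraries, 4 of 29 members tested were called, 2 each way (13.8%, beside 9.18% of 9296 genes, 5.87% higher and 3.30% lower). Between whole libraries, 15 of 30 members tested were called, 10 higher and 5 lower in libraries labelled A1/A2, beside 33.2% of 11087 genes (17.3% higher and 15.9% lower). These comparisons share sums of Kit, Cx3cr1 or Apoa1 wells, so their values are set side by side and were not related to each other.

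**Figure D2:**
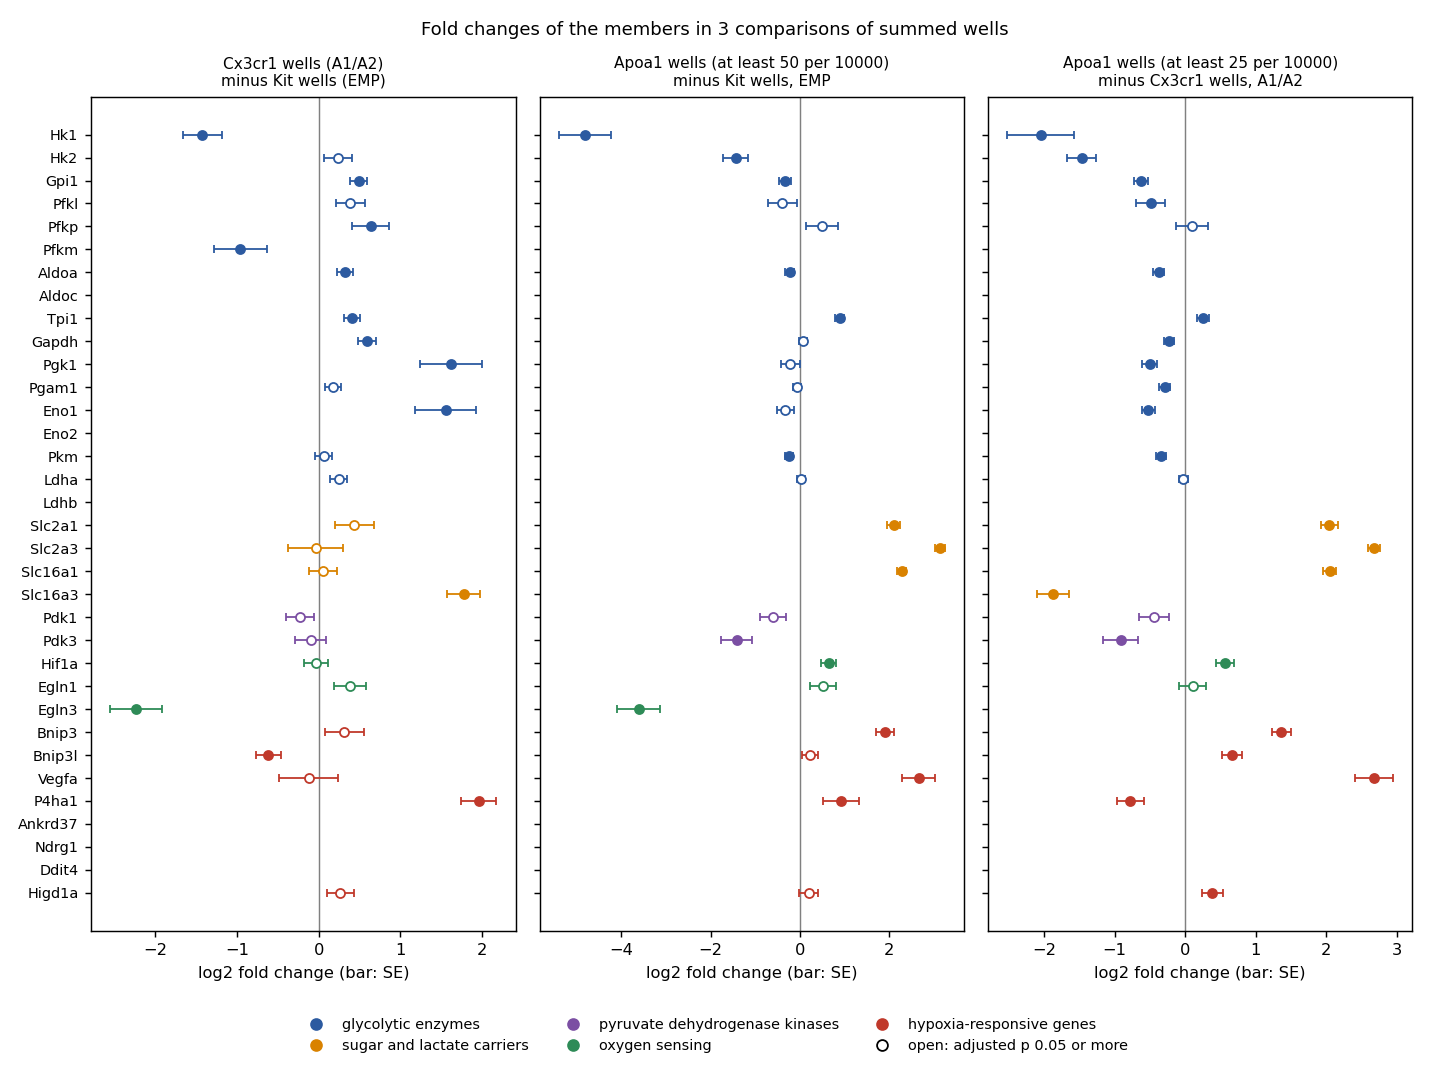
Log2 difference with its standard error (horizontal axes, which differ in range) of each tested member in 3 comparisons, coloured by list, with open points for members that did not pass. Slc2a1, Slc2a3 and Slc16a1 lay above 2 in the middle panel, where Apoa1 wells held at least 50 Apoa1 transcripts per 10000, and in the right panel, where they held at least 25, and the point of Hk1 in the middle panel rests on 2 transcripts in those 34 Apoa1 wells.

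The entry to glycolysis differed between classes in the choice of isozyme. Hk1, the hexokinase found in most tissues, stood at 0.571, 0.415, 0.343 and 0.603 transcripts per 10000 in Kit wells of EMP libraries 1 to 4 and at 0.194, 0.183, 0.184 and 0.152 in Cx3cr1 wells of A1/A2 libraries 1 to 4. Kit wells were higher in every library, and Hk1 fell by 1.42 ± 0.23 (log2, SE) in Cx3cr1 wells (edgeR adjusted p = 7.00e-05). Hk2, the hexokinase known to be induced by hypoxia, was 0.898 ± 0.178 in Cx3cr1 wells and 0.788 ± 0.182 in Kit wells, a log2 difference of 0.24 ± 0.17 that did not pass (adjusted p = 0.336). Hk1 thus made up 38.1% ± 9.13 of hexokinase transcripts in Kit wells and 16.8% ± 1.72 in Cx3cr1 wells. In Apoa1 wells both were low. Against Kit wells, Hk1 was lower by a log2 difference of -2.98 ± 0.27 and Hk2 by -1.28 ± 0.15, and against Cx3cr1 wells by -2.04 ± 0.48 and -1.47 ± 0.20 (edgeR adjusted p of 0.00108 or less in all 4).

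Phosphofructokinase, the main control point of glycolysis, is built from liver (Pfkl), platelet (Pfkp) and muscle (Pfkm) subunits. Pfkm stood at 0.140, 0.187, 0.140 and 0.201 in Kit wells of EMP libraries 1 to 4 and at 0.0971, 0.106, 0.0460 and 0.0762 in Cx3cr1 wells. Its levels did not overlap, and it fell by 0.96 ± 0.32 in Cx3cr1 wells (adjusted p = 0.0314), a share of 8.66% ± 2.44 of the 3 subunits against 21.3% ± 2.46. Pfkp was higher in Cx3cr1 wells by 0.64 ± 0.22 (edgeR adjusted p = 0.0392), and Pfkl did not pass (0.38 ± 0.18, adjusted p = 0.122). The calls of Pfkm and Pfkp were lost in 7 of 16 and 7 of 17 alternatives. Both were lost with DESeq2 and with classes by any transcript. That of Pfkm was also lost without the filter on low counts, and that of Pfkp at the looser class rule. Both also rested on single libraries. Pfkm no longer passed without A1/A2 library 3 or 4 or EMP library 2 or 4 (adjusted p = 0.0996, 0.0795, 0.0628 and 0.0918). Pfkp no longer passed without A1/A2 library 2 or 3 or EMP library 1 or 4 (adjusted p = 0.130, 0.0814, 0.133 and 0.0647). In Apoa1 wells, Pfkp was higher than in Kit wells by 0.76 ± 0.20, and Pfkl was lower than in Cx3cr1 wells by -0.49 ± 0.21 (edgeR adjusted p = 0.0476, but 0.177 without A1/A2 library 2 and 0.225 without library 3).

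**Figure D3:**
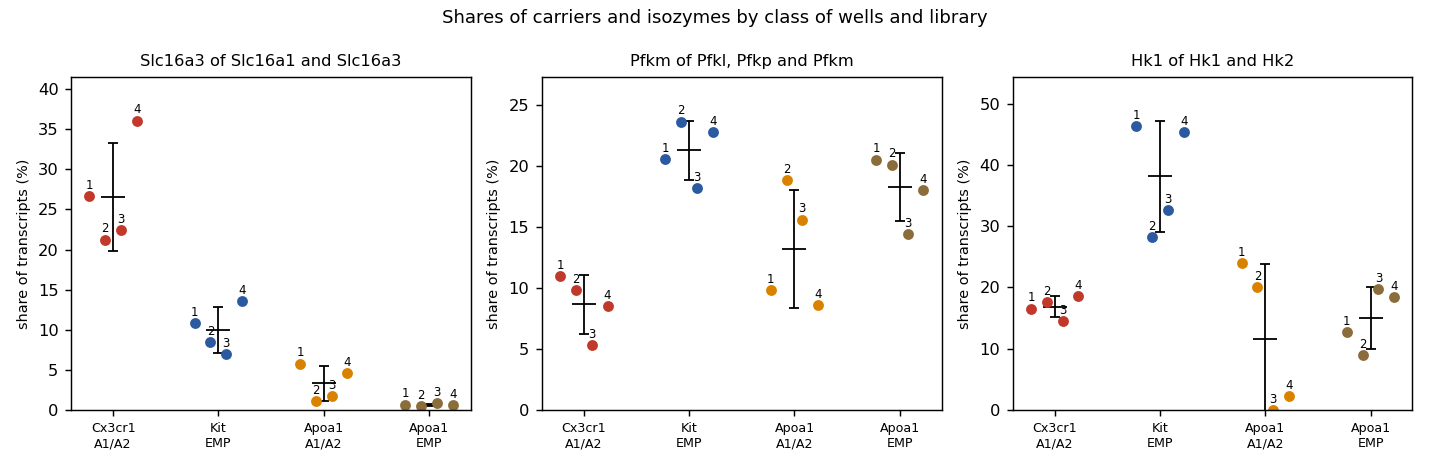
Share of 1 isozyme or carrier in the sum of its group, in percent (vertical axes), in Cx3cr1, Kit and Apoa1 wells, with 1 numbered point per library and the mean and SD. Of these 4 groups of wells, those with Kit had the highest mean shares of Hk1 and Pfkm (38.1% and 21.3%), and those with Cx3cr1 had the highest mean share of Slc16a3 (26.6%).

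The middle enzymes were higher in Cx3cr1 than in Kit wells. Gpi1, which converts glucose 6-phosphate to fructose 6-phosphate, was 3.76, 3.99, 4.25 and 3.70 in Cx3cr1 wells and 2.83, 2.97, 2.66 and 2.87 in Kit wells. The groups did not overlap, with a log2 difference of 0.49 ± 0.10 (edgeR adjusted p = 8.41e-04). Aldoa, the aldolase of most tissues, rose by 0.32 ± 0.10 (adjusted p = 0.0205, but 0.0641 without A1/A2 library 1 and 0.0581 without library 3). Tpi1, triose phosphate isomerase, rose by 0.40 ± 0.10 (adjusted p = 0.00404). The calls of Gpi1, Aldoa and Tpi1 were lost in wells thinned to 5000 transcripts. That of Tpi1 was also lost with classes by any transcript, and its lowest difference over the alternatives was 0.14. Apoa1 wells did not follow 1 direction here. Gpi1 was lower there than in Kit wells (-0.36 ± 0.08) and than in Cx3cr1 wells (-0.62 ± 0.10). Tpi1 was higher than in Kit wells, at 5.61, 6.55, 6.07 and 6.91 in EMP libraries 1 to 4 against 4.05, 4.30, 4.40 and 4.39. In the fit, the log2 difference was 0.76 ± 0.07 (edgeR adjusted p = 2.05e-07). Over Cx3cr1 wells Tpi1 was higher by 0.25 ± 0.08 (adjusted p = 0.00858, but 0.137 without A1/A2 library 2 and 0.0689 without library 4).

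Gapdh, Pgk1 and Eno1 carry out steps of the second stage of glycolysis, in which ATP is made. Gapdh stood at 18.8, 19.8, 25.2 and 21.4 in Cx3cr1 wells and at 13.4, 13.9, 13.7 and 16.3 in Kit wells. Every Cx3cr1 sum lay above every Kit sum, and Gapdh rose by 0.59 ± 0.11 (edgeR adjusted p = 2.11e-04). Pgk1, phosphoglycerate kinase, stood at 1.93, 1.67, 2.74 and 2.50 in Cx3cr1 wells and at 0.871, 0.643, 0.311 and 1.11 in Kit wells. Eno1, the enolase of most tissues, stood at 2.14, 1.69, 3.33 and 3.55 in Cx3cr1 wells and at 0.961, 0.912, 0.522 and 1.35 in Kit wells. Both were above Kit wells in every library, by 1.62 ± 0.38 for Pgk1 (edgeR adjusted p = 0.0206) and 1.55 ± 0.37 for Eno1 (adjusted p = 0.0234). Pgk1 and Eno1 also varied more within a class than Gapdh did. Without A1/A2 library 4 or EMP library 2, Pgk1 had an adjusted p of 0.0501 and 0.0560. Eno1 had 0.0525 without A1/A2 library 3, 0.0634 without EMP library 1 and 0.0612 without EMP library 2. The call of Pgk1, but not that of Eno1, was also lost when the library number that both sorts share was added as a term.

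The spread of Pgk1 and Eno1 followed libraries across classes. EMP library 3 had the lowest and library 4 the highest Pgk1 and Eno1 in Kit wells, and the same order held in Apoa1 wells, where Pgk1 was 0.682, 0.484, 0.371 and 1.10 and Eno1 was 0.801, 0.624, 0.400 and 0.873. In Apoa1 wells of the A1/A2 libraries, Eno1 was 1.51, 0.985, 2.01 and 2.18, again highest in libraries 3 and 4. The few Kit wells of the A1/A2 libraries, 2 to 4 per library, held Pgk1 at 0.796, 0.854, 2.22 and 1.67 and Eno1 at 0.796, 0.610, 2.44 and 3.46. Libraries 3 and 4 were again the high ones there, and libraries 1 and 2 fell within the range of Kit wells of the EMP libraries. Pooled, these 12 wells held 43 Pgk1 transcripts, or 1.495 per 10000 (1.08 to 2.01), and 57 Eno1 transcripts, or 1.98 (1.503 to 2.57). Between Apoa1 wells of both sorts, Pgk1 and Eno1 differed by 1.08 ± 0.36 and 1.25 ± 0.34 without passing (adjusted p = 0.134 and 0.0768), although Eno1 passed without A1/A2 library 2 (0.00230) and Pgk1 without EMP library 4 (0.00284).

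**Figure D4:**
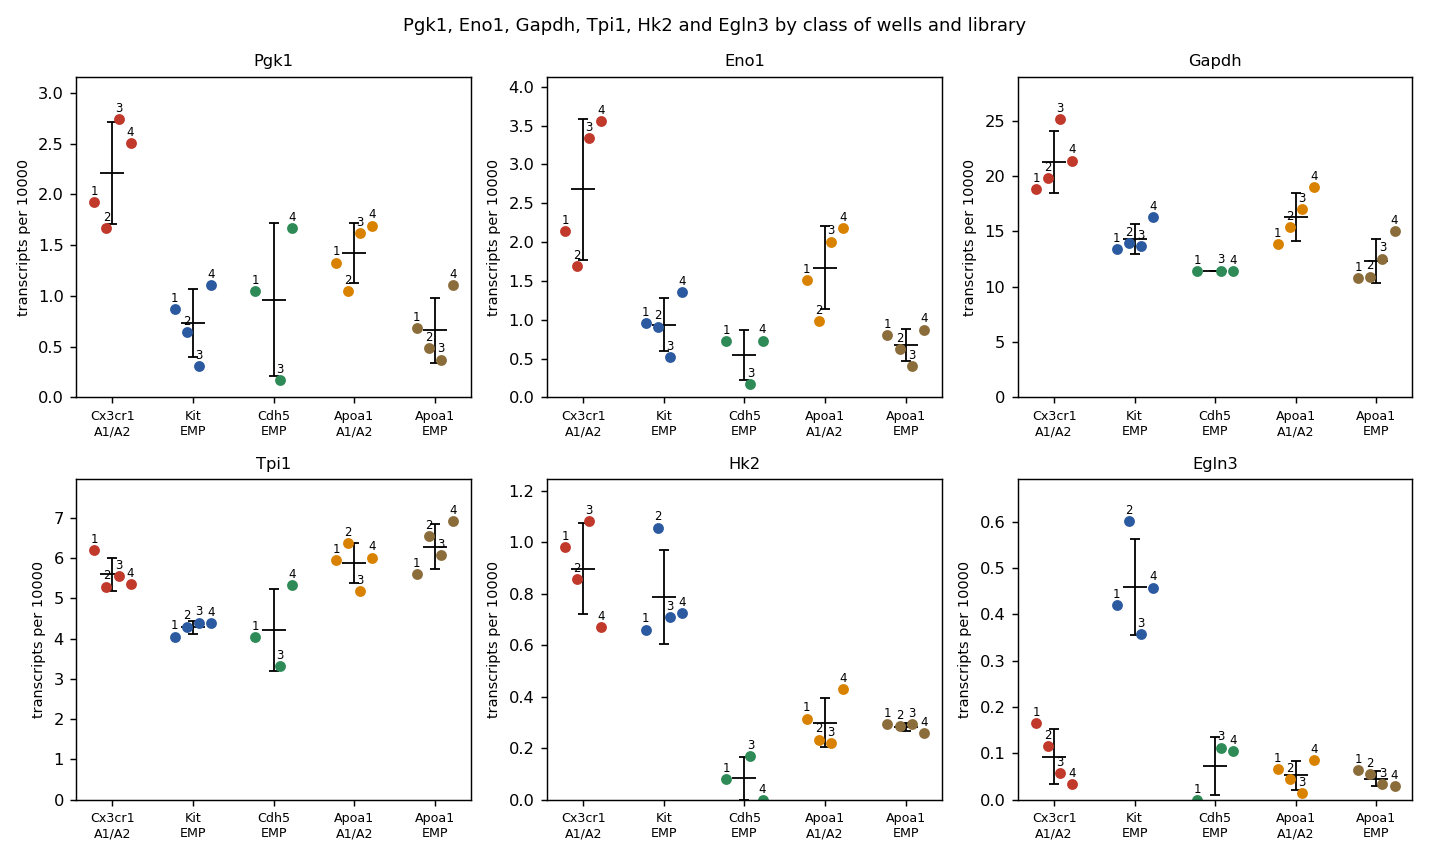
Transcripts per 10000 (vertical axes) of Pgk1, Eno1, Gapdh, Tpi1, Hk2 and Egln3 in each class of wells, with 1 numbered point per library and the mean and SD. Pgk1, Eno1 and Gapdh lay higher in every Cx3cr1 sum than in every Kit sum, and Egln3 lay lower.

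Pkm, Pgam1 and Ldha did not pass between Cx3cr1 and Kit wells. Pkm, pyruvate kinase, was 9.78 ± 0.594 in Cx3cr1 wells and 9.53 ± 1.37 in Kit wells (0.06 ± 0.10, adjusted p = 0.718), and Pgam1, phosphoglycerate mutase, was 8.77 ± 0.668 and 7.88 ± 0.874 (0.17 ± 0.10, adjusted p = 0.223). Ldha, the lactate dehydrogenase subunit that favours lactate, was 14.8 ± 1.05 and 12.7 ± 1.22 (0.24 ± 0.10, edgeR adjusted p = 0.0813). The 95% interval of that difference ran from 0.05 to 0.44. In Apoa1 wells Pkm was lower than in Kit wells (-0.21 ± 0.06) and than in Cx3cr1 wells (-0.35 ± 0.07), while Ldha differed from neither, with log2 differences of 0.02 ± 0.05 and -0.03 ± 0.06. Ldhb, the other subunit, made up between 0.283% and 0.751% of both subunits in the means of the Kit, Cx3cr1 and Apoa1 classes. The brain-type isozymes Aldoc and Eno2 passed the filter in no comparison. Eno2 was listed at 0 in all Cx3cr1 wells and in all Apoa1 wells of the EMP libraries. Gapdh, Ldha, Aldoa, Pgk1, Tpi1, Eno1, Pkm and Pgam1 have near-identical copies elsewhere in the genome, and since the rule for shared reads is not given in the sources used here, their levels are uncertain.

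Calls against Kit wells depended on the Apoa1 minimum for some members. At 50 transcripts, Pfkp (0.50 ± 0.35), Pgam1 (-0.06 ± 0.09), Eno1 (-0.33 ± 0.20), Pdk1 (-0.60 ± 0.28), Egln1 (0.52 ± 0.29), Bnip3l (0.22 ± 0.18) and Higd1a (0.19 ± 0.22) did not pass, whereas at 25 they did. Aldoa passed at 50 (-0.23 ± 0.09, edgeR adjusted p = 0.0347) and not at 25 (adjusted p = 0.0576). At 50, Gpi1, Aldoa and Pkm were lost without EMP library 1 (adjusted p = 0.06003, 0.188 and 0.101) or 2 (0.141, 0.129 and 0.0804), P4ha1 without library 1, 2 or 4 (0.0817, 0.171 and 0.132), and Pdk3 without library 2 (0.0558). At 25, Pgam1 was lost without any of libraries 1 to 4 (adjusted p = 0.0901, 0.0648, 0.132 and 0.0944), Eno1 without library 2 or 4 (0.107 and 0.218), Pkm without library 2 (0.119), P4ha1 without library 1 (0.0535) and Higd1a without library 3 (0.0615), in fits added after the data were seen.

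In Apoa1 wells 10 of 13 tested enzymes were lower than in Cx3cr1 wells and 1, Tpi1, was higher. Besides those above, these were Gapdh (-0.23 ± 0.07), Pgk1 (-0.50 ± 0.10), Pgam1 (-0.29 ± 0.07), Eno1 (-0.52 ± 0.10) and Aldoa (-0.37 ± 0.08), with edgeR adjusted p of 0.00438 or less. Of all 8057 genes, 27.1% were lower and 29.2% higher. The calls of Gapdh and Eno1 were lost without library as a term and in wells thinned to 5000 transcripts, and that of Gapdh also with DESeq2. Those of Aldoa, Pgam1 and Pkm were lost in thinned wells. Tpi1 was lost with DESeq2, in thinned wells and with classes by any transcript. Pfkl was lost with DESeq2, without library as a term and with classes by any transcript. In Cdh5 wells 1 of 13 tested enzymes, Hk2, was lower than in Kit wells, with 5 transcripts in all 27 wells and a log2 difference of -2.75 ± 0.57 (edgeR adjusted p = 5.5e-04). Gapdh and Ldha lay below Kit wells in all 3 libraries (11.4 ± 0.0367 and 10.003 ± 0.347), yet with log2 differences of -0.30 ± 0.15 and -0.29 ± 0.15 they did not pass (adjusted p = 0.194 and 0.226). Without EMP library 3, Aldoa, Gapdh and Ldha passed (edgeR adjusted p = 0.0398, 0.0424 and 0.0374).

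Of 4 carriers, 3 were higher in Apoa1 wells than in Kit and Cx3cr1 wells. Slc2a3, a high-affinity glucose transporter, stood at 19.6, 25.03, 18.1 and 20.7 in Apoa1 wells of the A1/A2 libraries and at 23.1, 28.0, 25.3 and 29.2 in those of the EMP libraries. Cx3cr1 wells held 5.58, 5.12, 5.45 and 4.23, and Kit wells held 3.98, 4.49, 9.22 and 3.29. The Apoa1 sums did not overlap the others. Slc2a3 rose in Apoa1 wells by 2.83 ± 0.39 over Kit wells (edgeR adjusted p = 0.00810) and by 2.68 ± 0.08 over Cx3cr1 wells (adjusted p = 1.74e-16). Slc2a1, the glucose transporter of red cells and barriers, rose from 1.01 ± 0.311 in Kit wells and 1.37 ± 0.339 in Cx3cr1 wells to 3.22 ± 0.344 and 3.98 ± 0.372 in Apoa1 wells of the same libraries. The fits, which used TMM normalization and only Kit and Cx3cr1 wells below 25 Apoa1 transcripts, gave log2 differences of 1.99 ± 0.17 and 2.04 ± 0.12 (edgeR adjusted p = 2.46e-05 and 1.33e-11). Against Kit wells at 50 Apoa1 transcripts, Slc2a1, Slc2a3 and Slc16a1 differed by 2.11 ± 0.15, 3.14 ± 0.10 and 2.28 ± 0.11. Slc2a3 made up 79.0% ± 2.47 to 89.1% ± 1.09 of both glucose carriers in the means of the Cx3cr1, Kit and Apoa1 classes.

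Of the lactate carriers, Slc16a1 (MCT1) was higher and Slc16a3 (MCT4) lower in Apoa1 wells. MCT4 is known as the lactate exporter of highly glycolytic cells, and MCT1 carries lactate, pyruvate and ketone bodies either way. Slc16a1 stood at 6.52, 7.43, 7.15 and 6.64 in Apoa1 wells of the A1/A2 libraries and at 7.87, 6.19, 6.61 and 8.70 in those of the EMP libraries, against 2.30 ± 0.373 in Cx3cr1 wells and 2.20 ± 0.614 in Kit wells. It rose by 2.03 ± 0.22 over Kit wells and by 2.05 ± 0.09 over Cx3cr1 wells (edgeR adjusted p = 0.00152 and 1.24e-15). Slc16a3 stood at 0.914, 0.675, 0.702 and 0.984 in Cx3cr1 wells, at 0.230, 0.166, 0.234 and 0.313 in Kit wells, and at 0.0511, 0.0304, 0.0530 and 0.0490 in Apoa1 wells of the EMP libraries. These 3 groups did not overlap, but Apoa1 wells of the A1/A2 libraries, at 0.398, 0.0842, 0.124 and 0.315, overlapped Kit wells. Slc16a3 was higher in Cx3cr1 than in Kit wells by 1.77 ± 0.20 (edgeR adjusted p = 4.66e-07) and lower in Apoa1 wells than in Kit wells by -2.14 ± 0.28 and than in Cx3cr1 wells by -1.87 ± 0.23 (adjusted p = 8.17e-06 and 9.30e-07). Its share of both lactate carriers was 26.6% ± 6.74 in Cx3cr1 wells, 9.95% ± 2.90 in Kit wells and 3.28% ± 2.22 and 0.622% ± 0.132 in Apoa1 wells of the A1/A2 and EMP libraries. The 12 Kit wells of the A1/A2 libraries held 9 Slc16a3 transcripts, 0.313 per 10000 (0.143 to 0.593).

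**Figure D5:**
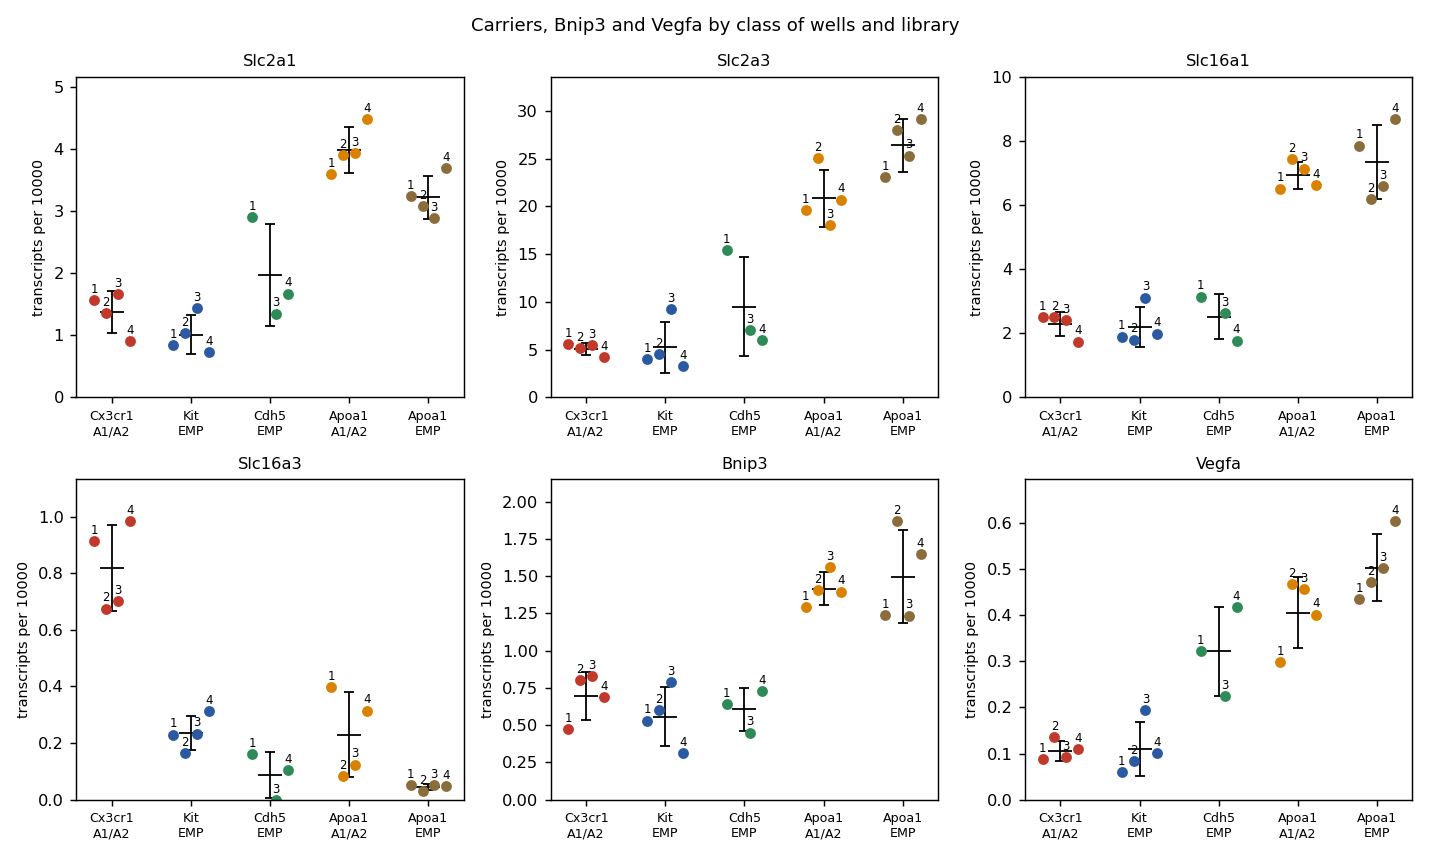
Transcripts per 10000 (vertical axes) of the 4 carriers, Bnip3 and Vegfa in each class of wells, with 1 numbered point per library and the mean and SD. Slc2a3, Slc16a1 and Bnip3 were highest in both sets of Apoa1 wells, whereas Slc16a3 was highest in Cx3cr1 wells (0.675 to 0.984).

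The 3 carriers that were high in Apoa1 wells were set beside endoderm genes as a share of their level in Apoa1 wells. In Cx3cr1 wells, with Apoa1 wells taken out at 25 per 10000, Slc2a3 stood at 17.6% of its level in Apoa1 wells of the same library on average (13.9% to 22.4%), Slc2a1 at 27.6% and Slc16a1 at 27.0%. The endoderm genes Afp, Ttr, Apob, Hnf4a and Cubn stood at 11.1%, 14.9%, 15.2%, 13.4% and 15.7%, so Slc2a3 lay nearer to them than the other 2 carriers did. In Kit wells of the EMP libraries Slc2a3 stood at 17.9%, Slc2a1 at 29.9% and Slc16a1 at 29.2%, and the 5 endoderm genes at 13.8% to 18.7%. In EMP library 3, where Slc2a3 stood at 33.6%, those 5 genes stood at 24.6% to 35.0%. The part of endoderm transcripts in these 3 carrier levels was not tested. Slc16a3 stood at 502% and 529% of its Apoa1 level, and Gapdh at 131% and 119%. Between Cx3cr1 and Kit wells, Slc2a1, Slc2a3 and Slc16a1 did not pass (0.43 ± 0.24, -0.04 ± 0.34 and 0.05 ± 0.17). Without EMP library 3, Slc2a3 and Slc2a1 were higher in Cx3cr1 wells by 0.40 and 0.69 (edgeR adjusted p = 0.0157 and 0.0117). Slc2a1 also passed without A1/A2 library 4 (0.60, adjusted p = 0.0299).

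In Cdh5 wells Slc2a1 stood at 2.90, 1.35 and 1.67 in EMP libraries 1, 3 and 4, against 0.842, 1.44 and 0.726 in Kit wells of the same libraries. It was higher by 0.97 ± 0.28 (edgeR adjusted p = 0.0204), although library 3 did not share the direction, and the call was lost in 8 of 14 alternatives. These were the fits without library 1 (0.535) or library 4 (0.0894), DESeq2, no filter on low counts, wells of at least 10000 transcripts, thinned wells, classes by any transcript, and Apoa1 wells taken out at 25 per 10000. Slc2a3 stood at 15.4, 7.06 and 5.96 in these Cdh5 wells and did not pass (0.84 ± 0.62, adjusted p = 0.550). Without library 3 it did (1.51, adjusted p = 9e-06). Endoderm markers summed to 95.1, 89.2 and 55.8 in the same wells, and their part in these values was not tested.

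Pyruvate dehydrogenase kinases keep pyruvate out of the citrate cycle. Pdk1, a known target of hypoxia-inducible factor, was 0.494 ± 0.0693 in Cx3cr1 wells and 0.586 ± 0.0602 in Kit wells, and Pdk3 was 0.437 ± 0.0699 and 0.482 ± 0.0777. Neither passed (-0.23 ± 0.17 and -0.10 ± 0.19). In Apoa1 wells both were lower than in Kit wells, at 0.312 ± 0.0647 and 0.157 ± 0.0270. The log2 differences were -0.78 ± 0.16 for Pdk1 and -1.42 ± 0.18 for Pdk3 (edgeR adjusted p = 4.69e-04 and 7.78e-06). Against Cx3cr1 wells Pdk3 was lower by -0.91 ± 0.25 (edgeR adjusted p = 0.00324, but 0.0833 without A1/A2 library 2). Pdk1 did not pass there (-0.44 ± 0.21, adjusted p = 0.0799), and passed without A1/A2 library 1 (0.0411) or 4 (0.0462).

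Egln3 differed most among the members of oxygen sensing. It encodes a prolyl hydroxylase that marks hypoxia-inducible factors and is itself switched on by them. Egln3 stood at 0.420, 0.601, 0.358 and 0.458 in Kit wells of EMP libraries 1 to 4 and at 0.165, 0.116, 0.0575 and 0.0339 in Cx3cr1 wells, with no overlap. It fell by 2.23 ± 0.32 in Cx3cr1 wells (edgeR adjusted p = 1.62e-05). In Apoa1 wells of the EMP libraries it stood at 0.0639, 0.0561, 0.0337 and 0.0294, a log2 difference of -3.16 ± 0.25 from Kit wells (adjusted p = 6.17e-08). In Cdh5 wells 5 transcripts were counted, a difference of -2.36 ± 0.71 (edgeR adjusted p = 0.0221, but 0.174 without EMP library 1 and 0.0625 without library 4). That call was lost in 6 of 13 alternatives, with differences from -7.73 to -1.61. The others were DESeq2, wells of at least 10000 transcripts, classes by any transcript, and Apoa1 wells taken out at 25 per 10000. The 12 Kit wells of the A1/A2 libraries held 16 Egln3 transcripts, 0.556 per 10000 (0.318 to 0.902), an interval that holds the mean of the EMP Kit wells and lies above every Cx3cr1 sum.

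Hif1a, the oxygen-regulated subunit itself, was 0.907 ± 0.0291 in Cx3cr1 wells and 0.954 ± 0.208 in Kit wells (-0.03 ± 0.15, adjusted p = 0.894), and Egln1, the main hydroxylase, was 0.466 ± 0.0939 and 0.356 ± 0.0398 (0.38 ± 0.20, adjusted p = 0.162). In Apoa1 wells Hif1a was higher, by 0.62 ± 0.12 over Kit wells and 0.56 ± 0.13 over Cx3cr1 wells (edgeR adjusted p = 4.21e-04 and 5.44e-04). Egln1 was higher than in Kit wells by 0.63 ± 0.17 (adjusted p = 0.00479) and did not differ from Cx3cr1 wells beyond the threshold (0.10 ± 0.19).

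Hypoxia-responsive genes did not move as 1 block. In Apoa1 wells Bnip3, an inducer of the removal of mitochondria, stood at 1.24, 1.87, 1.23 and 1.64 in EMP libraries and 1.29, 1.41, 1.56 and 1.40 in A1/A2 libraries, against 0.531, 0.601, 0.787 and 0.313 in Kit wells and 0.698 ± 0.160 (SD, n = 4) in Cx3cr1 wells. All Apoa1 sums were above all others, by 1.70 ± 0.26 over Kit and 1.36 ± 0.14 over Cx3cr1 wells (edgeR adjusted p = 0.00131 and 7.51e-09). Vegfa, the growth factor of vessels, was 0.503 ± 0.0723 and 0.405 ± 0.0769 in Apoa1 wells against 0.110 ± 0.0591 in Kit and 0.106 ± 0.0216 in Cx3cr1 wells. It rose by 2.54 ± 0.23 and 2.67 ± 0.27. In Cx3cr1 and Kit wells Vegfa stood at 17.3% and 18.6% of its Apoa1 level, and Bnip3 at 42.4% and 36.5%, beside the endoderm genes given above. In Cdh5 wells Vegfa (15 transcripts) lay above Kit wells in 3 of 3 libraries but did not pass (1.35 ± 0.61, adjusted p = 0.154), and passed without EMP library 3 (adjusted p = 0.0213).

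P4ha1, a collagen prolyl hydroxylase, was the member with the largest rise in Cx3cr1 wells. It stood at 0.486, 0.569, 0.541 and 0.619 there and at 0.120, 0.166, 0.132 and 0.168 in Kit wells, and rose by 1.96 ± 0.21 (edgeR adjusted p = 2.58e-07). Apoa1 wells lay between, higher than Kit wells by 0.83 ± 0.23 and lower than Cx3cr1 wells by -0.78 ± 0.19 (adjusted p = 0.00595 and 0.00136). In the 12 Kit wells of the A1/A2 libraries, 19 transcripts were counted, 0.661 per 10000 (0.398 to 1.03), but library 2 held 2.20 while libraries 1 and 3 held 0. Bnip3l, known for its part in clearing mitochondria from red cells, was lower in Cx3cr1 wells (0.719, 0.608, 0.840 and 0.865) than in Kit wells (1.08, 1.18, 1.39 and 1.03), by -0.62 ± 0.15 (edgeR adjusted p = 0.00355). It was higher in Apoa1 wells than in both, by 0.54 ± 0.11 and 0.66 ± 0.14. Higd1a, a mitochondrial protein induced by hypoxia, was higher in Apoa1 than in Kit wells by 0.41 ± 0.13 and than in Cx3cr1 wells by 0.38 ± 0.15 (edgeR adjusted p = 0.0151 and 0.0308). The latter was lost without A1/A2 library 2 or 3 (0.0909 and 0.221). Ankrd37, Ndrg1 and Ddit4 were scarce, with 37, 3 and 20 transcripts in all Cx3cr1 wells and 17, 5 and 2 in Kit wells of the EMP libraries. Ndrg1 and Ddit4 passed the filter in no comparison, and Ankrd37 in that of whole libraries only.

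Between whole libraries, the 10 members higher in the A1/A2 libraries were Hk2, Gpi1, Pfkl, Aldoa, Gapdh, Pgk1, Eno1, Slc16a3, P4ha1 and Ankrd37, and the 5 lower were Pfkm, Slc2a3, Slc16a1, Bnip3l and Vegfa. Slc16a3 ranged from 0.357 to 0.722 in A1/A2 libraries and from 0.0676 to 0.136 in EMP libraries, a log2 difference of 2.25 ± 0.26 (edgeR adjusted p = 1.57e-04). Slc2a3 ranged from 7.84 to 14.3 and from 14.9 to 23.6, a difference of -0.85 ± 0.20 (adjusted p = 0.00917). Neither pair of ranges overlapped. Endoderm markers summed to 91.5 ± 21.6 and 137.2 ± 27.6 in the same libraries. With Apoa1 wells at 25 per 10000 and globin-rich wells at 5% left out (an alternative chosen after the data were seen), Slc2a3 (-0.47 ± 0.21, adjusted p = 0.131), Slc16a1 (-0.08 ± 0.13, adjusted p = 0.687), Vegfa (-0.47 ± 0.26, adjusted p = 0.188) and Ankrd37 (1.07 ± 0.47, adjusted p = 0.0961) no longer passed. Hk1 (-1.08 ± 0.19) and Egln3 (-0.91 ± 0.21) then passed (edgeR adjusted p = 3.86e-04 and 0.00334), and Slc16a3 and Bnip3l stayed at 1.83 ± 0.16 and -0.58 ± 0.12. In that comparison, Pfkl, Pfkm, Aldoa and Ankrd37 had adjusted p from 0.0507 to 0.130 in the fits without 1 library in which they did not pass, and Pgk1 had 0.0704 without EMP library 2.

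Between Apoa1 wells of both sorts, 4 of 29 members tested were called (13.8%, beside 9.18% of all genes). Eno1 was not among them, although its levels, given above, did not overlap between the sorts. In Apoa1 wells of the A1/A2 libraries, Slc16a3 stood at 0.398, 0.0842, 0.124 and 0.315, above all 4 EMP libraries, with a log2 difference of 2.22 ± 0.45 (edgeR adjusted p = 0.00597). Myeloid markers summed to 3.52 ± 1.45 in these wells and to 0.340 ± 0.0873 in the Apoa1 wells of the EMP libraries, and their part in this value was not tested. Bnip3l was lower by -0.49 ± 0.11 (adjusted p = 0.00489) with no overlap. Gapdh (0.37 ± 0.11, edgeR adjusted p = 0.0348) and Slc2a3 (-0.38 ± 0.11, adjusted p = 0.0202) were called but overlapped. Without A1/A2 library 3 or 4 or EMP library 1, 2 or 3, Gapdh had an adjusted p of 0.105, 0.175, 0.110, 0.121 and 0.0673. Without A1/A2 library 1, 3 or 4 or EMP library 2 or 4, Slc2a3 had 0.0588, 0.0791, 0.0698, 0.0657 and 0.0575.

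Globin-rich wells were too few for a test. The single A1/A2 well held 178 transcripts of all members, 43.5 per 10000 (37.3 to 50.3), and the 5 EMP wells held 995, or 53.8 (50.5 to 57.2). With globin genes left out of the total, the A1/A2 well stood at 62.6, and EMP libraries 1, 3 and 4 stood at 45.8, 70.8 and 89.9. Bnip3l stood at 1.95 (1.37 to 2.70) in the EMP wells, above its means in Kit, Cx3cr1, Cdh5 and Apoa1 wells, and Pkm stood at 4.34 (3.44 to 5.40), below its means there.

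Neighbouring pathways were read from longer lists. Of 8 genes of the pentose phosphate pathway, which makes NADPH from glucose 6-phosphate, 5 were higher and none lower in Cx3cr1 than in Kit wells (13.6% and 12.0% of all genes), among them G6pdx (1.21 ± 0.15), Pgd (0.95 ± 0.13) and Tkt (0.65 ± 0.12). In Apoa1 wells 5 of 8 were lower than in Cx3cr1 wells, beside 27.1% of all genes (Pgd -0.96 ± 0.11, Tkt -0.72 ± 0.10, G6pdx -1.06 ± 0.15). At 50 per 10000, 3 of 8 were lower and 2 higher than in Kit wells (Tkt -1.05 ± 0.18, Pgls -1.34 ± 0.32, Rpe 1.20 ± 0.31). Those shares were near the ones of all genes, 26.2% lower and 27.3% higher. The median log2 difference of the list was 0.59 between Cx3cr1 and Kit wells and -0.60 between Apoa1 and Cx3cr1 wells, beside -0.011 and -0.0027 for all genes. Within Apoa1 wells, 2 of 8 were higher in the A1/A2 libraries (Tkt 0.80 ± 0.13, Pgd 0.64 ± 0.13), beside 5.87% of all genes. Between whole libraries 5 of 8 were, beside 17.3% of all genes.

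A further list held other genes of glycolysis. Of 10 tested between Apoa1 and Cx3cr1 wells, 5 were higher and 2 lower in Apoa1 wells (29.2% and 27.1% of all genes), including the transporter Slc2a2 (2.99 ± 0.10) and the hexokinase Hkdc1 (3.39 ± 0.24). Of 9 tested against Kit wells at 50 per 10000, 6 were higher and none lower (27.3% and 26.2% of all genes), including both of these. Of 10 listed genes of gluconeogenesis, only 4 were tested in these comparisons. Of these, 3 were higher in Apoa1 wells both over Cx3cr1 wells (29.2% of all genes) and, at 50 per 10000, over Kit wells (27.3% of all genes). They were Gpt2, Slc37a4 and Fbp2, at 2.54 ± 0.29, 1.57 ± 0.24 and 1.34 ± 0.22 over Cx3cr1 wells. In the citrate cycle list, 6 of 16 were higher and 2 lower in Apoa1 than in Cx3cr1 wells (including Mdh1 at 1.18 ± 0.09 and Mpc2 at 0.94 ± 0.14), and at 50 per 10000 7 of 16 were higher and 1 lower than in Kit wells. The shares of higher genes were near those of all genes against Cx3cr1 wells and above them against Kit wells. Between Cx3cr1 and Kit wells, 2 of 17 citrate cycle genes were higher (Sdhb 0.61 ± 0.13, Fh1 0.57 ± 0.16) and 1 was lower, beside 13.6% and 12.0% of all genes. Of 11 further glycolysis genes there, Slc16a7 was higher (2.53 ± 0.37) and Bpgm lower (-0.88 ± 0.26).

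Of the further hypoxia genes, 7 of 24 were higher and 3 lower in Cx3cr1 than in Kit wells (13.6% and 12.0% of all genes), including Flt1 (1.04 ± 0.15) and Kdr (-5.96 ± 0.43, on 4 transcripts in Cx3cr1 wells), receptors of VEGF, and Hmox1 (1.79 ± 0.27), heme oxygenase. In Cdh5 wells 6 of 16 were higher than in Kit wells and none lower (7.63% and 4.40% of all genes), led by Kdr (3.11 ± 0.20), Flt1 (2.60 ± 0.24) and Epas1 (3.95 ± 0.50), which are also known as genes of endothelium. In Apoa1 wells 7 of 19 were higher and 4 lower than in Cx3cr1 wells (29.2% and 27.1% of all genes), with Angptl4 at -2.37 ± 0.29, Ak4 at 1.57 ± 0.26 and Rbpj at -0.76 ± 0.16. Between whole libraries 7 of 33 were higher and 2 lower in A1/A2 libraries (17.3% and 15.9% of all genes, so the share of higher genes was near the background), including Angptl4 (1.88 ± 0.19), Cxcr4 (4.19 ± 0.67) and Kdr (-3.18 ± 0.39). Within Apoa1 wells 1 of 29 was higher, Mif (0.76 ± 0.16), and 1 was lower, Kdr (-2.64 ± 0.45), beside 5.87% and 3.30% of all genes.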

How the data were processed

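Single CD45+ cells were profiled with mCEL-Seq2, a 3′ method with unique molecular identifiers, in 8 libraries of 192 wells. The deposited tables hold estimated counts of transcripts, which the authors corrected for identifier collisions, per the labels' protocols. With 4096 identifiers, undoing that correction gave whole numbers for 100.0% of entries (tolerance 1e-06). BWA 0.6.2-r126 and Seurat are named in the submitters' processing notes without a role. Build, annotation and the rule for shared reads were not given in the sources used here. A deposited series table, of expected counts for 689 wells, was identical to the library tables.

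Wells with at least 5000 transcripts were summed per library and class, with at least 5 wells per sum, and rounded to whole numbers. Classes were taken in the order globin-rich, Apoa1, then Cdh5, Kit and Cx3cr1. The planned Apoa1 minimum of 50 per 10000 left 1 A1/A2 library with 5 wells, so both comparisons of Apoa1 wells in the A1/A2 libraries used the planned looser rule (25 per 10000, globin at 5%). The comparison of Apoa1 and Kit wells in the EMP libraries could be run at 50. Its values are nevertheless printed at 25 unless 50 is named. Sums were fitted across all genes with edgeR 4.0.16 (R 4.3.3; TMM, filterByExpr, robust quasi-likelihood test, Benjamini-Hochberg at 5%). Library was a term where both sums came from the same libraries. The standard error is the log2 difference divided by the root of F. The procedure was tested on simulated data. Alternatives were DESeq2 1.42.0, other well minimums, class rules, filters, thinning and leaving out each library. All 34 members are named, and from each further list up to 3 called genes with the smallest p. Some genes of these lists are not reported here by name. The members and lists were chosen with earlier results of these data known. Figures were drawn with matplotlib 3.10.9.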

Additional observations from a re-analysis of the deposited data

Results flagged for a closer look

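Of 294 groups of 4 libraries examined, 12 held 1 library set apart from the other 3 by Dixon's outlier test, which judges the gap against the spread of the 4 values. Chance alone gives about 1 in 20, a rate that 12 of 294 does not exceed, so the list is a description only. In transcripts per 10000, Bnip3 was 0.672 in A1/A2 library 1, against 0.967 to 0.991 in the others. In Cx3cr1 wells, Slc16a1 was 1.74 in library 4 (others 2.43 to 2.52), and the sum of all members was 102.8 in library 3 (others 92.0 to 93.0).

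In Kit wells of the EMP libraries, Hk2 was 1.06 in library 2 (others 0.661 to 0.726), and Ldhb was 0.0 in the same library (others 0.0447 to 0.05). In library 3, Slc16a1 was 3.12 (others 1.80 to 1.99) and the sum of the carriers was 14.0 (others 6.32 to 7.50).

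In Apoa1 wells, Aldoa was 6.87 in A1/A2 library 4 (others 5.92 to 6.07), Ankrd37 was 0.0259 in A1/A2 library 2 (others 0.0966 to 0.105), and Pfkm was 0.111 in EMP library 3 (others 0.1275 to 0.1285). In whole EMP libraries, pyruvate dehydrogenase kinases summed to 0.788 in library 4 (others 0.599 to 0.613), and Pfkl made up 34.4% of phosphofructokinase transcripts in library 2 (others 44.2% to 45.0%).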

How the results depend on the processing

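Across all alternatives, 2641 member results stayed on the same side of the threshold, 170 no longer passed and 55 passed newly. A further 3 passed newly in the opposite direction and are named as reversals below. Members called in both fits kept their direction, while those that passed in neither were not checked for direction. The members that lost their call in no alternative that tested them numbered 5 of 15 (whole libraries), 5 of 13 (Cx3cr1 and Kit wells), 0 of 3 (Cdh5 and Kit), 8 of 15 and 15 of 22 (Apoa1 and Kit, at 50 and at 25 per 10000, the latter run after the data were seen), 12 of 22 (Apoa1 and Cx3cr1) and 1 of 4 (Apoa1 wells of both sorts). Alternatives in which a member failed the filter on low counts, as many did in thinned wells, were not counted against it. A called member without an adjusted p in an alternative was counted as keeping its call. The reversals were Slc16a1 between Cx3cr1 and Kit wells classed by any transcript (-0.47, against 0.05), Slc2a3 in the same comparison without EMP library 3 (0.40, against -0.04; range without 1 library -0.21 to 0.40), and Slc16a1 between Cdh5 and Kit wells at the looser class rule (-0.84, against 0.15); the cause was not tested.

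With wells thinned to 5000 transcripts, in which fewer genes were tested, the members called were 6, 3, 1, 4, 8, 6 and 1 in the same order, and genes called were 823, 309, 187, 724, 1612, 739 and 75, against 3685, 2131, 825, 3751, 5631, 4536 and 853. Between Cdh5 and Kit wells, 1 member was called by DESeq2, 6 with wells of at least 1000 transcripts, 1 with at least 10000, 0 with classes by any transcript (4 at an unadjusted edgeR p under 0.05), and 1 to 8 without 1 library; genes called were 352 by DESeq2, 387 at 10000, 107 by any transcript, and 446 and 481 without library 1 or 4. Between Apoa1 and Kit wells, 9 members and 1625 genes were called with classes by any transcript, 2313 genes by DESeq2 and 5631 at 25 per 10000, where 18 members were called by DESeq2 and 19 to 21 without 1 library. Between Apoa1 wells of both sorts, 2 to 6 members were called without 1 library; 1283 genes were called without the filter.

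The summed level of all members rose with mitochondrial and unnamed predicted genes left out of the total, to 123.8 and 121.7 (whole A1/A2 and EMP libraries), 121.1 (Cx3cr1), 101.5 (Kit), 94.5 (Cdh5), and 135.0 and 134.8 (Apoa1 wells, A1/A2 and EMP). As a mean over wells it was 79.1 and 79.3 (whole libraries), 87.8 (Cx3cr1) and 93.9 (Apoa1, A1/A2). With the library number as a replicate block, 18, 14 and 6 members were called between whole libraries, Cx3cr1 and Kit wells, and Apoa1 wells of both sorts (1320 genes in the last), and without the block 3, 15, 19 and 19 in the comparisons within libraries (Cdh5 and Kit, Apoa1 and Kit at 50 and at 25, Apoa1 and Cx3cr1). The titles give the same library numbers to both sorts. Same-numbered libraries correlated at -0.02 to 0.39, and in each comparison between the sorts most libraries, but not all, correlated best with their own number. These correlations do not settle whether the number marks a pairing. The reported fits between the sorts left the number out, and the fits with the block show what changes if it is one. No comparison of globin-rich wells was run, and members with few transcripts were limited by depth.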
